A study of Mus musculus with 23 samples.

Results

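Interleukin 1 and the genes that call neutrophils into tissue were followed in the lungs of mice with and without cystic fibrosis. The set held 9 genes: the ligands Il1b and Il1a, the inhibitor Il1rn and the decoy receptor Il1r2, the chemokines Cxcl1, Cxcl2 and Cxcl5, and the receptors Cxcr2 and Csf3r. They were taken by name, as the probe sets annotated with 1 of these symbols, which gave 13 of 45037 probe sets and 9 of 18193 genes. Il1rn and Cxcl1 had 3 probe sets each. The value of a gene is that of its brightest probe set over all arrays, and all 9 genes were measured and tested, since no filter on low values was used.

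Total RNA of right lungs was measured on 23 arrays of inbred C57BL/6 (B6) and BALB/c (BALB) mice of both sexes, which were either CF-/- (called CF here) or CF+/+ (called controls). There were 3 arrays for each of the 8 groups formed by strain, sex and genotype, but 2 for B6 CF males, so the number of arrays limits the precision. The labels name no targeting allele, age, housing or infection and do not tell whether different arrays hold different animals. The p-values therefore reflect the scatter among these arrays, part of which may be technical. Signals are on a log2 scale, where a difference of 1 is a doubling. The CF effect in a strain is the mean of the CF minus control differences of its males and females. A gene was called when its adjusted p (limma, Benjamini-Hochberg over all probe sets) was under 0.05.

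The whole lung also sets limits on these values. The lung markers Sftpc, Sftpb and Scgb1a1 read at least 13.55, 11.82 and 13.57 on every array. Cftr, the channel gene lost in cystic fibrosis, read 3.49 to 4.42 in BALB CF lungs and 5.40 to 5.85 in BALB controls, but 3.86 to 4.31 in B6 CF lungs and 4.04 to 4.58 in B6 controls, so Cftr parts the labelled genotypes of BALB but not those of B6. Markers of squamous epithelium, summarised per array as the mean deviation from each gene's median, stood at 1.86 to 3.79 in BALB CF females, at 3.80 in 1 B6 control male (replicate 3) and at 1.16 in 1 B6 control female (replicate 1), against 0.17 or less on the other arrays. Muscle markers were high on the same BALB CF female arrays (1.23 to 2.81) and reached 2.50 in B6 control males. Intestinal markers stood at 0.14 to 1.51 in BALB controls, at 1.07 in that B6 control female and up to 0.56 in BALB CF females. In whole lung, more cells of a type and more RNA per cell cannot be told apart.

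As background, interleukin 1 is an alarm cytokine. Its beta form is made as an inactive precursor by monocytes, macrophages and neutrophils and is cut into its active form by caspase-1 in inflammasomes, while the alpha form is active in epithelial and other cells as made. Both act on the same receptor, which switches on NF-kappaB, and Il1rn and Il1r2 hold them back. NF-kappaB in turn drives CXC chemokines, which draw neutrophils through their receptor Cxcr2, and G-CSF, acting on Csf3r, supplies them from the bone marrow. Neutrophilic airway inflammation is a hallmark of cystic fibrosis lung disease in people.

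Promoter sequence was at hand for 8 of the 9 genes, in RefSeq windows of 250 bases upstream of the start site in build GRCm38.p6. The windows of Cxcl1 and Cxcl2 are shown because these neighbouring chemokine genes share a motif and differed in their calls, and those of Il1b, Cxcr2 and Csf3r because these genes were called in both strains. Capitals mark matches to an NF-kappaB consensus in Cxcl1 and Cxcl2 (GGGAATTTCC, with an overlapping match on the other strand 1 base on), to a TATA box in Il1b (TATAAA) and to the core bound by PU.1, a myeloid transcription factor (GAGGAA, on the reverse strand and so printed as TTCCTC in Cxcr2).
Cxcl1, chr5:90890995-90891244 (+ strand): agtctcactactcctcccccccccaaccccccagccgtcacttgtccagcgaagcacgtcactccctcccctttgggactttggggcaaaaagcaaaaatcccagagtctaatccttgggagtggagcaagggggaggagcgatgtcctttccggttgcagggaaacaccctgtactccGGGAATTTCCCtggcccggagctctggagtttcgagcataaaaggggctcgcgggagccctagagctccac
Cxcl2, chr5:90903649-90903898 (+ strand): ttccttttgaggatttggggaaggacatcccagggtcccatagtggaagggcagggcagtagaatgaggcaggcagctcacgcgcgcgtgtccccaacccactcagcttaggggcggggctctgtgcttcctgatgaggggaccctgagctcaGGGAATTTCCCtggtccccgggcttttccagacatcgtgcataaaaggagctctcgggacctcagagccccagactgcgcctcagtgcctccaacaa
Il1b, chr2:129371140-129371389 (- strand): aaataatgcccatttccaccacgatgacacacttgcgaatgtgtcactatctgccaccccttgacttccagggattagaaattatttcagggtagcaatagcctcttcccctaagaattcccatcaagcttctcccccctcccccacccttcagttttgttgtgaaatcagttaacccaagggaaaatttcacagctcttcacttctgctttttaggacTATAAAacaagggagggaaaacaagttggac
Cxcr2, chr1:74153744-74153993 (+ strand): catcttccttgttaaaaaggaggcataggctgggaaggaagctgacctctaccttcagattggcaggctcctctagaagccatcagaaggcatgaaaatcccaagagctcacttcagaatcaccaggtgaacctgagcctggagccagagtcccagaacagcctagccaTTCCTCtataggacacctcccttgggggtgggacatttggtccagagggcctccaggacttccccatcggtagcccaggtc
Csf3r, chr4:126024409-126024658 (+ strand): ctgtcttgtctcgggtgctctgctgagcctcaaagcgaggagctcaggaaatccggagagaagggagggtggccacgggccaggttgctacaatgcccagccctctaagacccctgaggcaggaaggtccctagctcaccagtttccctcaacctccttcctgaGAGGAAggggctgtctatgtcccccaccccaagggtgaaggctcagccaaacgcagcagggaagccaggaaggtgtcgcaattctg

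The NF-kappaB match lay 71 bases upstream of the start in Cxcl1 and 97 bases upstream in Cxcl2. The TATA match lay 31 bases upstream in Il1b, and the PU.1 match 81 bases upstream in Cxcr2 and 86 bases upstream in Csf3r. Both strands were searched, also for AP-1 and C/EBP motifs. Il1a, whose CF effect was not called and whose window is not shown, held GAGGAA 41 bases and TATAAA 32 bases upstream. It also held an AP-1 match 12 bases upstream, and 1 window of Il1rn held an AP-1 match 141 bases upstream. Of 32817 promoter windows of the same length, 3.9% held the NF-kappaB consensus, 12.4% TATAAA, 23.3% GAGGAA, 6.75% the AP-1 motif and 9.57% the C/EBP motif. A match is a run of letters and does not show that a factor binds there.

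CF lungs had more RNA of Il1b and of both receptors in each strain, and of the chemokine Cxcl2 in B6 males. In B6, 4 of the 9 genes rose (Il1b, Cxcl2, Cxcr2 and Csf3r) and 0 fell, where 5.43% of all genes were called and 3.92% were called higher. In BALB, 3 rose (Il1b, Cxcr2 and Csf3r) and 0 fell, where 5.53% of all genes were called and 2.87% were called higher. The median CF effect over the 9 genes was 0.26 in B6 and 0.22 in BALB, beside 0.01 and -0.01 over all genes. The 9 genes were chosen with earlier results of these data known, so these shares and medians describe the set and do not test it. The B6 effect on Cxcl2 was 1.32 in males and -0.10 in females, and the sexes differed by test. Il1a, Il1rn, Il1r2, Cxcl1 and Cxcl5 did not pass in either strain.

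**Figure D1:**
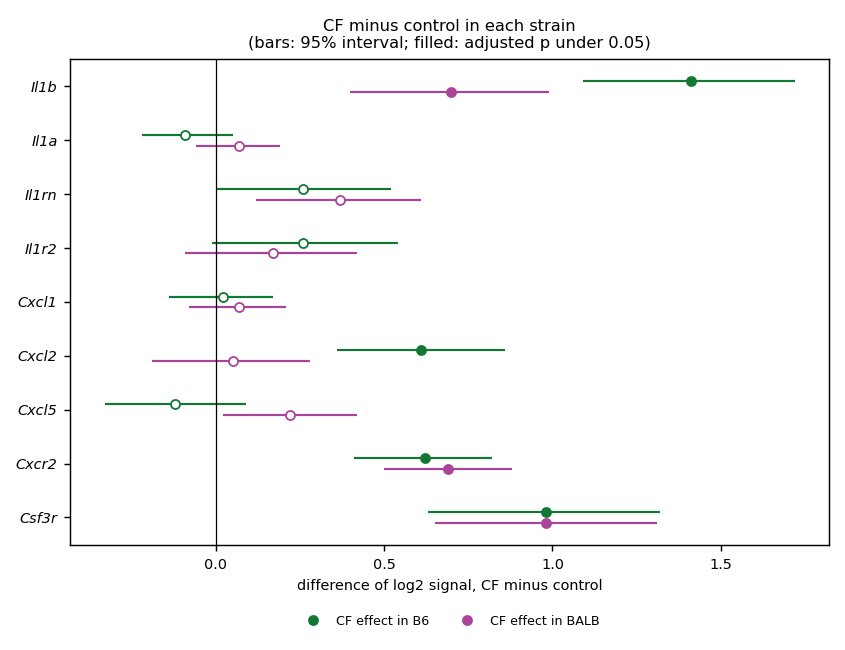
CF minus control difference of log2 signal for the 9 genes in B6 (green) and BALB (magenta), with 95% intervals from the limma fit and filled points for adjusted p under 0.05. Il1b, Cxcr2 and Csf3r lie to the right of 0 in both strains, Cxcl2 only in B6, at 0.61 against 0.05 in BALB, a strain difference that did not pass (adjusted p = 0.0754).

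Il1b, the secreted ligand, had the largest CF effect of the 9 genes in B6, while in BALB that of Csf3r was larger. In B6 CF females it read 7.05, 7.17 and 7.46, against 6.20, 6.21 and 6.57 in control females. In B6 CF males it read 8.36 and 8.56, against 5.98, 6.5 and 7.17 in control males. Within each sex of B6 the CF and control arrays did not overlap, and the 2 CF males stood above all other arrays. The CF effect in B6 was 1.41 (SE 0.15, n = 5 and 6, 2.65-fold, limma adjusted p = 1.92e-05), from 0.90 in females (SE 0.20, limma adjusted p = 0.0345) and 1.91 in males (SE 0.22, 3.75-fold, limma adjusted p = 3.66e-05). The difference between the sexes, -1.0 for females minus males (SE 0.30), did not pass (limma adjusted p = 0.0952).

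In BALB CF lungs Il1b was close to the same on every array: 7.18, 7.25 and 7.28 in females and 7.22, 7.37 and 7.47 in males. BALB control females read 6.24, 6.28 and 6.48 and control males 6.51, 7.04 and 7.04. All 6 CF arrays lay above all 6 controls, though the control males at 7.04 came close to them. The CF effect in BALB was 0.70 (SE 0.14, n = 6 and 6, 1.62-fold, limma adjusted p = 0.00611), with 0.90 in females (limma adjusted p = 0.0339) and 0.49 in males, which did not pass (limma adjusted p = 0.271). The BALB effect was smaller than the B6 effect by an estimated 0.71 (95% interval of BALB minus B6 -1.14 to -0.28), which did not pass (limma adjusted p = 0.0729). It passed when B6 control male replicate 2 was left out (-0.86, adjusted p = 0.0083) or BALB control male replicate 1 (-0.80, adjusted p = 0.042). Over all 23 single-array omissions the estimate ran from -0.86 to -0.57. In 8 other alternative fits it ran from -0.71 to -0.33 and passed in 0 of them.

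Il1a, the epithelial and cell-bound ligand, showed no called CF effect, at -0.09 in B6 (95% interval -0.22 to 0.05) and 0.07 in BALB (-0.06 to 0.19). It parted the strains instead. B6 arrays read 3.74 to 4.02 and BALB arrays 4.77 to 5.23, so that all 12 BALB arrays lay above all 11 B6 arrays. Ranges of the strains did not overlap in 4% of all genes. BALB exceeded B6 by 1.10 in controls (SE 0.06, n = 6 and 6, 2.14-fold, limma adjusted p = 1.34e-11) and by 1.25 in CF lungs (SE 0.06, n = 6 and 5, limma adjusted p = 4.73e-12). Il1a had 1 probe set, and a difference in RNA and a sequence difference between the strains under the probes cannot be told apart here.

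**Figure D2:**
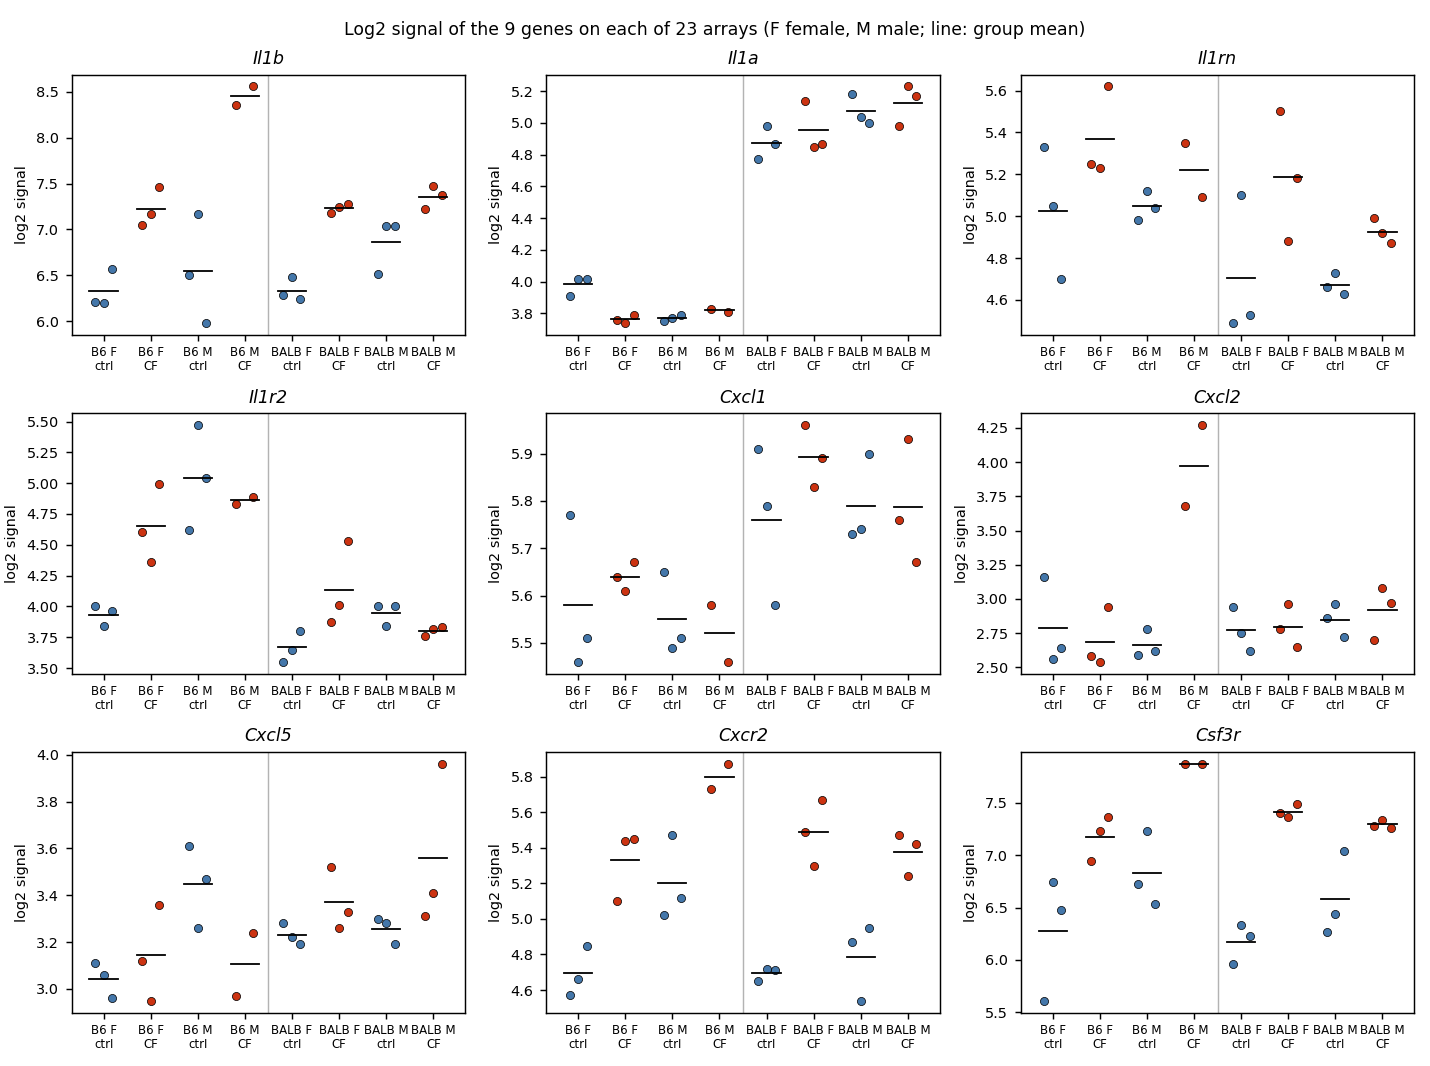
Log2 signal of the 9 genes on each of the 23 arrays, by strain, sex and genotype, with a bar at each group mean. Il1b and Csf3r are higher in the CF groups, Il1a is higher on all BALB arrays, and the Cxcl2 values above 3.16 belong to the 2 B6 CF males.

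The genes that restrain interleukin 1 had no called CF effect. Il1rn, the secreted receptor antagonist, read 4.70 to 5.33 in B6 controls and 5.09 to 5.62 in B6 CF lungs, and 4.49 to 5.10 in BALB controls and 4.87 to 5.50 in BALB CF lungs. The groups overlapped in both strains. Its CF effect was 0.26 in B6 (95% interval 0 to 0.52, limma adjusted p = 0.299) and 0.37 in BALB (0.12 to 0.61, limma adjusted p = 0.0786). The BALB value passed without BALB CF female replicate 2 (0.44, adjusted p = 0.0368) or BALB control female replicate 2 (0.46, adjusted p = 0.0143). Il1rn is also made by squamous epithelium, whose markers were high in BALB CF females, and their part in the value was not tested.

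Il1r2, the decoy receptor of neutrophils and monocytes, differed between sexes and strains, while its CF effect was not called. Among B6 controls, females read 3.84, 3.96 and 4.0 and males 4.62, 5.04 and 5.47. Among BALB controls, females read 3.55, 3.65 and 3.80 and males 3.84, 4.0 and 4.0. Control males lay above control females in each strain without overlap. Females were lower by -0.69 over both strains (SE 0.12, n = 6 and 6, limma adjusted p = 0.00435), and Il1r2 was the 1 gene of the 9 called between control sexes, where 3.42% of all genes were called. With the squamous, muscle and intestinal scores as covariates that call was lost. B6 CF females read 4.36, 4.6 and 4.99, all above the control females, while B6 CF males, at 4.83 and 4.89, lay inside the range of control males.

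The CF effect on Il1r2 was 0.71 in B6 females (95% interval 0.35 to 1.08, limma adjusted p = 0.0604) and -0.19 in B6 males (-0.60 to 0.22). The difference between those effects was 0.90 (SE 0.26) and did not pass (limma adjusted p = 0.0865). Over both sexes the effect was 0.26 in B6 (-0.01 to 0.54) and 0.17 in BALB (-0.09 to 0.42). The neutrophil marker score moved in the same groups of B6: it was -0.62 to -0.20 in control females, 0.38 to 0.82 in CF females, 0.38 to 0.60 in control males and 0.49 to 0.96 in CF males. In BALB females Il1r2 read 3.87 to 4.53 in CF and 3.55 to 3.80 in controls, and the score was also higher in CF. In BALB males Il1r2 read 3.76 to 3.83 in CF and 3.84 to 4.0 in controls. The score of BALB males went the other way, at -0.07 to 0.17 in CF and -0.75 to -0.19 in controls. The part of the neutrophil markers in the Il1r2 values was not tested.

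Among the chemokines, Cxcl2 was high in 1 group. Cxcl2 (MIP-2), an early neutrophil attractant of macrophages, read 3.68 and 4.27 in the 2 B6 CF males and 2.54 to 3.16 on the other arrays of the study. B6 CF females, at 2.54, 2.58 and 2.94, overlapped their controls (2.56, 2.64 and 3.16). The CF effect in B6 males was 1.32 (SE 0.18, n = 2 and 3, limma adjusted p = 0.000175) and in B6 females -0.10 (95% interval -0.43 to 0.24, limma adjusted p = 0.935). The difference between the sexes, -1.41 for females minus males (SE 0.24), passed (limma adjusted p = 0.00696), and Cxcl2 was the 1 gene of the 9 to do so, where 2.05% of all genes were called. In BALB, 0 of the 9 passed that test, where 0.0275% of all genes were called.

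Over both sexes the CF effect on Cxcl2 was 0.61 in B6 (SE 0.12, n = 5 and 6, limma adjusted p = 0.00466) and 0.05 in BALB (95% interval -0.19 to 0.28). The strain difference of -0.56 did not pass (limma adjusted p = 0.0754), but it passed without B6 control female replicate 1 (-0.66, adjusted p = 0.0174). Without B6 CF male replicate 1, which left 1 array in that group, it was -0.71. Over all 23 single-array omissions the estimate ran from -0.71 to -0.42. In 7 other alternative fits it ran from -0.64 to -0.48 and passed in 2 of them. All of these Cxcl2 values lie at the low end of the array, where its mean of 2.89 exceeds that of 7.05% of probe sets, and a filter on dim probe sets (a highest group mean under 4.59) removes Cxcl2 and Cxcl5. No detection call was used here and signals this dim may be compressed, so no fold is given for Cxcl2.

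Cxcl1 (KC), a related chemokine with the same NF-kappaB match in its promoter, showed no called CF effect. On its brightest probe set it read 5.46 to 5.67 in B6 CF lungs and 5.46 to 5.77 in B6 controls, and 5.67 to 5.96 in BALB CF lungs and 5.58 to 5.91 in BALB controls. The CF effect was 0.02 in B6 (95% interval -0.14 to 0.17) and 0.07 in BALB (-0.08 to 0.21). In B6 CF males, where Cxcl2 was high, Cxcl1 read 5.46 and 5.58, within the range of the male controls (5.49, 5.51 and 5.65) or just below it. On its dimmest probe set those 2 arrays read 4.05 and 3.90, above the male controls (3.65, 3.73 and 3.74). The CF effect on that probe set was 0.22 in B6 (-0.03 to 0.46, limma adjusted p = 0.376) and 0.26 in BALB (0.03 to 0.49, limma adjusted p = 0.214), and on the remaining probe set 0.05 and 0.11, none of them called. Cxcl5 (LIX), a chemokine of lung epithelium, was also dim, at 2.95 to 3.61 in B6 and 3.19 to 3.96 in BALB. Its CF effect was -0.12 in B6 (-0.33 to 0.09) and 0.22 in BALB (0.02 to 0.42, limma adjusted p = 0.218).

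Both receptors rose in both strains. Cxcr2, the neutrophil receptor for these chemokines, read 5.10, 5.44 and 5.45 in B6 CF females against 4.57, 4.66 and 4.85 in control females, and 5.73 and 5.87 in B6 CF males against 5.02, 5.12 and 5.47 in control males. BALB CF females read 5.30, 5.49 and 5.67 and CF males 5.24, 5.42 and 5.47, against 4.65, 4.71 and 4.72 in control females and 4.54, 4.87 and 4.95 in control males. Within each sex of each strain CF and control arrays did not overlap. The CF effect was 0.62 in B6 (SE 0.10, n = 5 and 6, 1.54-fold, limma adjusted p = 0.000798) and 0.69 in BALB (SE 0.09, n = 6 and 6, 1.61-fold, limma adjusted p = 0.000178). Their difference was 0.07 (95% interval -0.21 to 0.35). Cxcr2 was called in each of the 4 groups of strain and sex, at 0.64 in B6 females, 0.60 in B6 males, 0.79 in BALB females and 0.59 in BALB males, with limma adjusted p between 0.00835 and 0.0214.

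Csf3r, the receptor for G-CSF on neutrophils and their precursors, read 6.94, 7.23 and 7.36 in B6 CF females and 7.87 on both B6 CF male arrays. B6 control females read 5.61, 6.48 and 6.74 and control males 6.53, 6.72 and 7.23. BALB CF lungs spread little, from 7.26 to 7.49, above the BALB controls at 5.96 to 7.04. The CF and control arrays did not overlap within a sex of B6, or over all 6 against 6 arrays in BALB. The CF effect was 0.98 in B6 (SE 0.17, 1.97-fold, limma adjusted p = 0.00154) and 0.98 in BALB (SE 0.16, 1.97-fold, limma adjusted p = 0.000947), with an interval of -0.48 to 0.48 for their difference.

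Counted by separate groups of strain and sex, 2 of the 9 genes rose in B6 females (Il1b and Cxcr2), 4 in B6 males (Il1b, Cxcl2, Cxcr2 and Csf3r), 3 in BALB females (Il1b, Cxcr2 and Csf3r) and 1 in BALB males (Cxcr2), and 0 fell in any. The shares of all genes called were 0.929%, 7.4%, 1.51% and 2.12% in that order, and the shares called higher 0.594%, 5.13%, 0.824% and 1.38%. The test of the strain difference in CF effect passed for 0 of the 9, where 2.23% of all genes were called. The intervals nearest to passing were those of Il1b (-1.14 to -0.28) and Cxcl2 (-0.91 to -0.22), and each passed in a few of the single-array omissions. In the other alternative fits Il1b passed in 0 of 8 and Cxcl2 in 2 of 7. At full separation of CF from control arrays, BALB had 3 genes (Il1b, Cxcr2 and Csf3r), where 2.23% of all genes separated, and B6 had 0, where 2.7% did. In B6 these 3 genes separated within each sex but not with the sexes pooled.

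**Figure D3:**
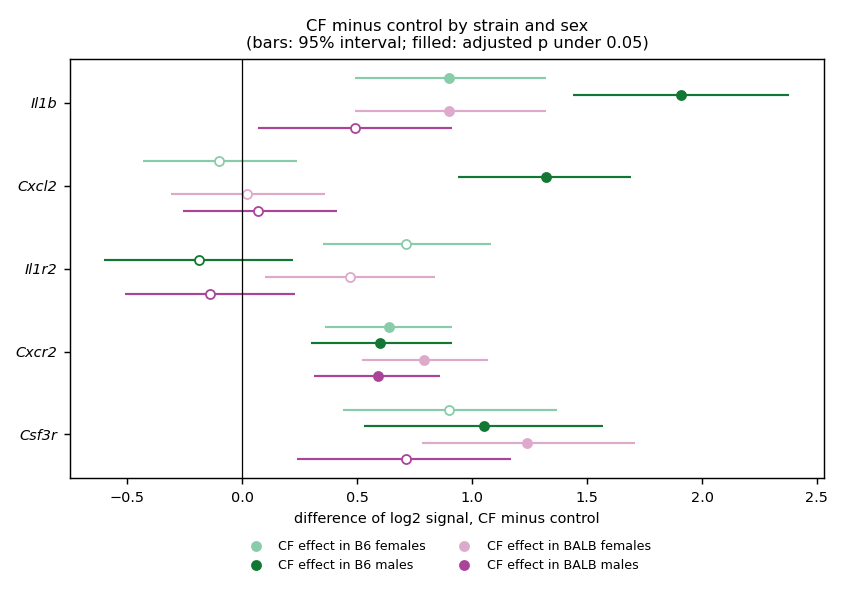
CF minus control difference of log2 signal in each group of strain and sex, with 95% intervals and filled points for adjusted p under 0.05. Cxcr2 is filled in all 4 groups, and Cxcl2 only in B6 males, where it is 1.32 against -0.10 in B6 females.

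The squamous, muscle and intestinal scores were also entered into the fit. With these 3 scores as covariates, the called genes in B6 stayed at 4, but in BALB none of the 9 was called: Il1b was 0.93 (SE 0.20, limma adjusted p = 0.169), Cxcr2 0.76 (limma adjusted p = 0.148) and Csf3r 0.77 (limma adjusted p = 0.295). Without the covariates Il1b in BALB was 0.70 (SE 0.14). The share of all genes called with the covariates was not computed, so these counts have no background beside them. The genotypes did not overlap in squamous score in BALB females (1.86 to 3.79 in CF, -0.25 to -0.15 in controls) or in intestinal score in BALB males (-0.13 to 0.04 in CF, 0.51 to 1.47 in controls). BALB CF males carried no raised squamous score (-0.18 to -0.13), and in them the CF effect was 0.49 for Il1b, 0.59 for Cxcr2 and 0.71 for Csf3r, of which Cxcr2 passed. When the 2 B6 control arrays with a squamous score above 1 were left out, 4 genes were again called in B6, with Il1b at 1.23 and Csf3r at 0.73.

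The strains also differed in several members at a given genotype. In controls 4 of the 9 were called (18.2% of all genes): Il1a and Cxcl1 were higher and Il1rn and Il1r2 lower in BALB. Il1r2 differed by -0.68 (SE 0.12, limma adjusted p = 0.00038). Like Il1a it had 1 probe set, so a sequence difference between the strains under the probes cannot be told apart. In these controls 8 of 15 neutrophil markers were lower and 1 higher in BALB, and 6 of 9 monocyte markers were lower and 1 higher. This was not particular to these cells: of 10 alveolar macrophage markers 5 were lower and 1 higher. Of 9 mast cell, basophil and eosinophil markers 4 were higher and 0 lower. The part of these markers in the Il1r2 difference was not tested. Cxcl1 differed by 0.21 (SE 0.07, limma adjusted p = 0.0406) on its brightest probe set and by 0.42 and 0.57 on the others, with limma adjusted p of 0.000316 and 0.000917. The Cxcl1 call on the brightest probe set was lost in 7 single-array omissions, each of a control array (0.17 to 0.20, adjusted p 0.0712 to 0.121): B6 females 2 and 3, B6 males 2 and 3, BALB females 1 and 2 and BALB male 3. Il1rn differed by -0.35 (SE 0.12, limma adjusted p = 0.0484), and lost its call in 18 of 23 single-array omissions, with the highest adjusted p without B6 control female replicate 1 (-0.27, adjusted p = 0.133). Its other probe sets gave -0.47 (limma adjusted p = 0.0011) and -0.23 (limma adjusted p = 0.155).

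In CF lungs 6 of the 9 differed between strains (19.7% of all genes): Il1a, Cxcl1 and Cxcl5 were higher and Il1b, Il1r2 and Cxcl2 lower in BALB. Il1r2 differed by -0.78 (SE 0.13, limma adjusted p = 0.000155). Il1b differed by -0.55 (SE 0.15, limma adjusted p = 0.0126), Cxcl2 by -0.48 (SE 0.12, limma adjusted p = 0.00686) and Cxcl1 by 0.26 (limma adjusted p = 0.0142). On these probe sets the 3 calls each turned on 1 array: without B6 CF male replicate 2 they were -0.50 (adjusted p = 0.0618), -0.33 (adjusted p = 0.0843) and 0.23 (adjusted p = 0.0732). The other probe sets of Cxcl1 gave 0.49 (limma adjusted p = 0.000108) and 0.61 (limma adjusted p = 0.00072). Il1rn, not called on its brightest probe set (-0.24, limma adjusted p = 0.211), was called lower in BALB on another (-0.42, limma adjusted p = 0.0045). Cxcl5 differed by 0.34 (SE 0.10, limma adjusted p = 0.0232) and lost its call without B6 CF male 1, B6 CF female 2, BALB CF female 1 or BALB CF male 3 (0.24 to 0.30, adjusted p 0.0595 to 0.145). With the squamous, muscle and intestinal scores as covariates, the calls that held were those of Il1a and Il1r2, while Il1b was -0.47 (adjusted p = 0.0649), Cxcl2 -0.40 (adjusted p = 0.0994), Cxcl1 0.25 (adjusted p = 0.135) and Cxcl5 0.40 (adjusted p = 0.0723). In controls too, Il1a and Il1r2 held with these covariates and Cxcl1 (0.14, adjusted p = 0.86) and Il1rn (-0.41, adjusted p = 0.657) did not. In controls, Il1b (0.16, 95% interval -0.14 to 0.46) and Cxcl2 (0.08, -0.15 to 0.32) did not pass. These comparisons share arrays with the CF effects.

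**Figure D4:**
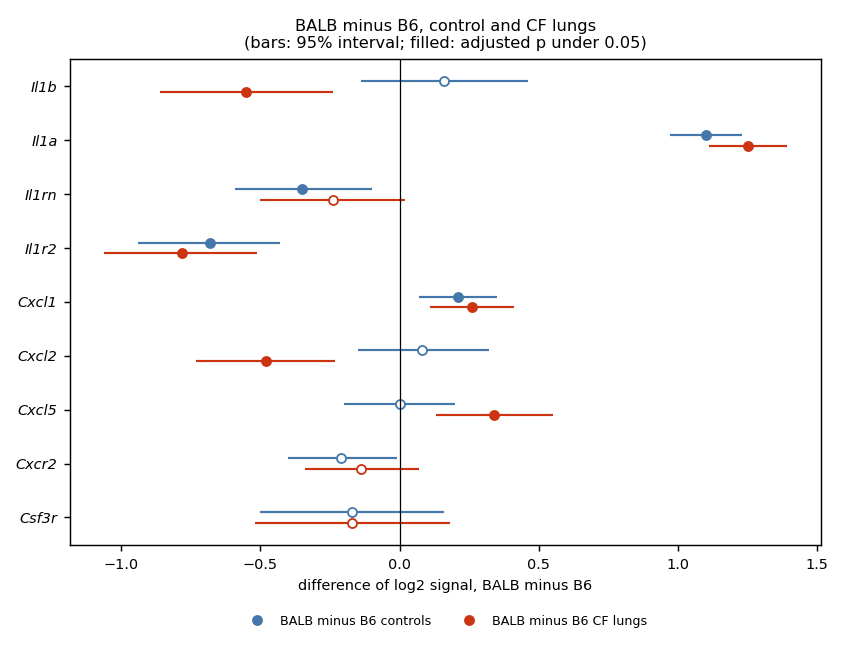
BALB minus B6 difference of log2 signal in controls (blue) and CF lungs (red), with 95% intervals and filled points for adjusted p under 0.05. Il1a is about 1 or more above 0 in both, Il1r2 below 0 in both, and Il1b and Cxcl2 lie below 0 in CF lungs, at -0.55 and -0.48.

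Other genes of the pathway were counted in lists, to be read beside the 3.92% of all genes called higher in B6 and 2.87% in BALB. Of 13 measured other interleukin 1 family ligands and receptors, 1 rose in B6 and 2 in BALB, with 0 lower and medians of 0 and 0.21. Il18rap, the accessory chain of the interleukin 18 receptor on lymphocytes, rose in B6 (0.83, limma adjusted p = 4.91e-05) and in BALB (0.38, limma adjusted p = 0.0185). Il1f9 (interleukin 36 gamma), an epithelial cytokine, rose in BALB (0.79, limma adjusted p = 0.00265). Squamous epithelium makes it too, and the squamous score was high in BALB CF females, whose part was not tested. Il1r1, the signalling receptor, was -0.26 in B6 and 0.22 in BALB, neither called, while the difference of 0.48 between the strains passed (SE 0.11, limma adjusted p = 0.0169).

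Of 10 measured genes that process interleukin 1, 3 rose in each strain and 0 fell, and they were the same 3. These counts pool the sexes. By sex, 0 of the 10 were called in females of either strain, while 4 rose in B6 males and 2 in BALB males. Of all genes, 0.594% were called higher in B6 females, 0.824% in BALB females, 5.13% in B6 males and 1.38% in BALB males. The test of the sex difference of the CF effect called 1 of the 10 in B6 and 0 in BALB. B6 males were the group with the fewest CF arrays. Pycard, the inflammasome adaptor ASC, rose by 0.46 in B6 (limma adjusted p = 0.0452) and 0.63 in BALB (limma adjusted p = 0.00372). Casp4, the caspase that senses bacterial lipopolysaccharide inside cells, rose by 0.52 (limma adjusted p = 0.00583) and 0.43 (limma adjusted p = 0.0146). Gsdmd, the pore through which interleukin 1 leaves the cell, rose by 0.30 (limma adjusted p = 0.00333) and 0.22 (limma adjusted p = 0.0218). The list medians were 0.23 and 0.15. Casp1 (0.39 and 0.34) and Nlrp3 (0.27 and 0.24) did not pass in B6 or BALB.

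Of 15 measured signalling genes downstream of the receptor, 1 rose in B6 and 1 fell in BALB. Tnfaip3 (A20), a feedback inhibitor of NF-kappaB, rose by 0.54 in B6 (SE 0.05, limma adjusted p = 1.12e-05) and was 0.10 in BALB, and the difference passed (-0.43, SE 0.07, limma adjusted p = 0.00317). Nfkbia, the NF-kappaB inhibitor IkappaB alpha, fell by 0.34 in BALB (limma adjusted p = 0.0336) and was 0.25 in B6, and the difference passed (-0.59, SE 0.13, limma adjusted p = 0.0189). Both are known to be induced by NF-kappaB itself, as is Cxcl2, but NF-kappaB activity in these lungs was not tested. Nfkbiz was 0.49 in B6 and 0.55 in BALB and did not pass in either. The list medians were 0.06 and 0.03.

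Of 16 other chemoattractant genes, 2 rose and 1 fell in B6, and 1 rose in BALB. Fpr2, a formyl peptide receptor of phagocytes, rose in B6 (0.70, limma adjusted p = 0.00846), as did Alox5ap, needed for leukotriene synthesis (0.40, limma adjusted p = 0.0367), while the lung chemokine Cxcl15 fell by 0.25 (limma adjusted p = 0.0444). Cxcl12, which holds neutrophils in the bone marrow, rose in BALB (0.47, limma adjusted p = 0.0221). Cxcl3, a close relative of Cxcl2, was 0.10 in B6 and 0.19 in BALB, uncalled at a mean signal of 2.67. Of 12 measured genes of granulopoiesis and the interleukin 17 axis, 1 rose in B6 and 4 in BALB. Il17ra rose in both (0.35, limma adjusted p = 0.0371, and 0.39, limma adjusted p = 0.0147), and the GM-CSF receptor chains Csf2rb (0.56, limma adjusted p = 0.00257) and Csf2ra (0.54, limma adjusted p = 0.00301) in BALB. Csf3, the ligand of Csf3r, was -0.05 in B6 and 0.07 in BALB, and Il17a 0.05 and 0.09, none of them called.

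Of 11 measured adhesion genes that carry leukocytes through the vessel wall, 4 rose in B6 and 6 in BALB, with 0 lower and medians of 0.20 and 0.23. By sex, 0 rose in B6 females and 5 in B6 males, and 4 in BALB females and 1 in BALB males. The shares of all genes called higher were 0.594%, 5.13%, 0.824% and 1.38% in that order. The test of the sex difference of the CF effect called 1 of the 11 in B6 and 0 in BALB. On the leukocyte side, the integrin chains Itgal (0.82, limma adjusted p = 0.000144) and Itgb2 (0.55, limma adjusted p = 0.00506) and the selectin ligand Selplg (0.76, limma adjusted p = 0.000153) rose in B6. In BALB, Selplg (0.61, limma adjusted p = 0.000855), Itgam (0.76, limma adjusted p = 0.00137) and Itgb2 (0.54, limma adjusted p = 0.00348) rose. On the endothelial side, Icam1 was 0.02 and 0.05, Sele 0.09 and -0.06 and Selp 0.30 and -0.06 in B6 and BALB, none of them called, whereas Vcam1 rose in BALB (0.32, limma adjusted p = 0.0419). The uncalled genes were picked after their values were seen. Icam2 and Pecam1, also measured, are not given, and not every gene of the list that rose is named, so neither side is shown in full.

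Markers of the cells that carry these genes were read alongside. Of 15 measured neutrophil markers, 6 rose and 0 fell in each strain, with medians of 0.65 in B6 and 0.45 in BALB. Within the sexes, 5 rose in B6 females (median 0.82), 1 in B6 males (median 0.24), 4 in BALB females and 2 in BALB males. Of all genes, 0.594%, 5.13%, 0.824% and 1.38% were called higher in that order. The test of the sex difference of the CF effect called 2 of the 15 in B6, both with a higher effect in females, and 0 in BALB. S100a9, a calprotectin chain of neutrophils and monocytes, rose by 1.06 in B6 (limma adjusted p = 0.016) and 1.77 in BALB (limma adjusted p = 0.000158), and Mmp8, neutrophil collagenase, by 0.50 (limma adjusted p = 0.0129) and 0.40 (limma adjusted p = 0.0328). S100a8 and S100a9 are also made by squamous epithelium. Of 9 measured monocyte markers, 5 rose in B6 and 4 rose and 1 fell in BALB (Nr4a1, also an immediate early gene). By sex, 0 of the 9 were called in B6 females and 5 rose in B6 males, the group with the fewest CF arrays. Of all genes, 0.594% and 5.13% were called higher in these groups. For 4 of the 9 the B6 effect was called lower in females than in males, where 2.05% of all genes were called for a sex difference. In BALB, 2 rose in females, and 2 rose and 1 fell in males. Cx3cr1, of patrolling monocytes, rose in both (0.85, limma adjusted p = 0.00325, and 0.67, limma adjusted p = 0.0119), and Ccr2, of inflammatory monocytes, in BALB (1.24, limma adjusted p = 5.2e-05). Of 10 alveolar macrophage markers 1 rose in B6 (Marco, 0.83, limma adjusted p = 0.0148) and 0 in BALB, and 0 of 9 mast cell, basophil and eosinophil markers were called in either strain.

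The 2 B6 CF males, where Il1b and Cxcl2 were highest, also stood high in other lists. Their monocyte score was 0.75 and 0.93, against -0.26 to -0.15 in B6 control males and at most 0.45 on any other array. Their immediate early score, over 16 genes such as Nr4a1, Dusp1 and Zfp36 that respond within minutes to cell stimulation and tissue handling, was 0.73 and 0.90, against -0.22 to -0.10 in B6 control males, -0.04 to 0.62 in B6 control females and 0.13 to 0.44 in B6 CF females. In BALB it was -0.44 to -0.04 in CF lungs, -0.40 to -0.20 in control females and -0.01 to 0.81 in control males, so that 1 BALB control male lay between the 2 B6 CF males. Of the 16 genes, 9 rose in B6 males and 0 in B6 females, where 5.13% and 0.594% of all genes were called higher. The test of the sex difference in B6 called 5 of the 16, all with a lower effect in females, where 2.05% of all genes were called. Over both sexes 5 rose in B6, while 1 rose and 7 fell in BALB. The neutrophil scores of B6 CF males (0.49 and 0.96) overlapped those of B6 control males. The part of these markers in the Il1b and Cxcl2 values was not tested.

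**Figure D5:**
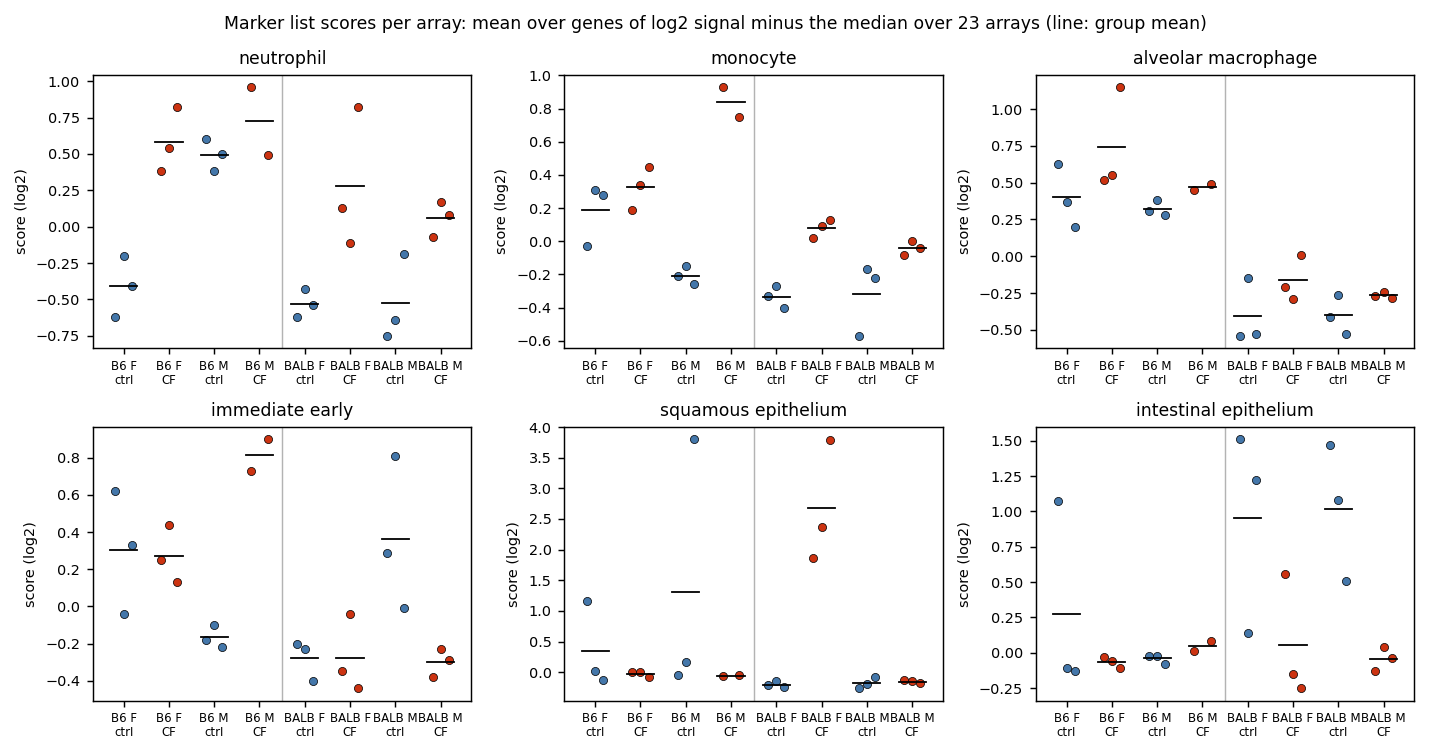
Marker scores per array (mean deviation of log2 signal from each gene's median over arrays) by strain, sex and genotype. B6 CF males stand highest for monocyte markers, at 0.75 and 0.93, and BALB CF females for squamous markers, at 1.86 to 3.79, a level reached elsewhere by 1 B6 control male at 3.80.

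How the members varied among arrays of the same group was described after each group's mean was taken off. Il1b and Csf3r correlated over the 23 arrays at r = 0.60, Cxcr2 and Csf3r at 0.55, Il1r2 and Cxcr2 at 0.57 and Cxcl2 and Csf3r at -0.37, as a description of arrays that share a normalization. Of 11633 other genes, those most like Cxcr2 were Clec4d (r = 0.78), Srl (0.75) and Ppargc1a (0.71). Those most like Csf3r were Slfn1, Slc11a1 and Ms4a4c (each 0.83). Those most like Il1b were Ckmt2 (0.79), Lpcat2 (0.77) and Osr1 (0.74), and those most like Il1a were Ahcyl2 (0.86), Igfbp7 (0.83) and Adm (0.79). Cxcl2 was most like Psmc6 (0.92), Tmx3 and F2r (both 0.91), from 11634 genes. Each of these values is among the highest of that many genes, and the level that chance would reach was not tested.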

How the data were processed

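Labelled total RNA of right lungs was measured on 23 arrays. The deposited value table holds 45101 probe sets, taken as log2 signals from their range (1.79 to 13.82) and shared array medians (4.56 to 4.64). No source used here states how the authors summarised or normalized them, and scanner files were not used here. The 64 control probe sets were left out. Symbols came from the platform annotation (34945 probe sets with 1 symbol, 932 with several, 9160 with none). Array correlations ran from 0.971 to 0.996, and 0 pairs were identical.

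Group means were fitted to all arrays together with limma 3.58.1 in R 4.3.3 (lmFit, eBayes, 15 residual and 5.81 prior degrees of freedom). P-values were adjusted by Benjamini-Hochberg over 45037 probe sets within each of 12 comparisons. A gene is read from its brightest probe set. All 9 members are named, and from each of 15 lists (6 of pathways, 9 of markers, alveolar type 2 cells included, where 1 of 9 fell in B6 and 0 passed in BALB) up to 3 genes of lowest p per strain, while those given as not called were picked after their values were seen. Likeness is Pearson's r of deviations from group means, among genes whose mean is at or above 4.59. Members and lists were chosen with earlier results of these data known. The fit was checked on simulated data. Alternatives were quantile normalization, a filter on dim probe sets, other eBayes and array weight settings, marker scores as covariates, a replicate block, only the arrays compared, another probe set, each array left out, and, chosen after seeing the data, 2 B6 controls left out.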

Additional observations from a re-analysis of the deposited data

Results flagged for a closer look

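Each gene was looked at in the 4 groups of strain and genotype (36 groups) for a single array that stands apart, a test that chance meets in about 1 group in 20, and 3 were found. Il1r2 read 4.53 in BALB CF female replicate 3, against 3.76 to 4.01 on the other BALB CF arrays. Cxcl2 read 3.16 in B6 control female replicate 1, against 2.56 to 2.78 on the other B6 controls. Cxcl5 read 3.96 in BALB CF male replicate 3, against 3.26 to 3.52 on the other BALB CF arrays. The CF effect on Cxcl2 in B6 differed between the sexes by -1.41, females minus males, by the test of that difference.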

How the results depend on the processing

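Over the single-array omissions, the number of the 9 genes called was 4 to 4 for the CF effect in B6, 3 to 4 in BALB, 0 to 1 for the strain difference, 2 to 4 between strains in controls and 3 to 6 in CF lungs, 1 to 2 for the sex difference in B6, 0 to 0 in BALB and 1 to 2 between control sexes. With the squamous, intestinal and muscle scores as covariates the counts were 0 for the CF effect in BALB, 2 between strains in controls, 2 in CF lungs, 2 for the sex difference in B6 and 0 between control sexes. Array weights gave 1 for the strain difference (Cxcl2, -0.62, adjusted p = 0.0207), and fitting only the arrays compared gave 2 between strains in controls. The filter on dim probe sets gave 0 for the sex difference in B6, as it removes Cxcl2. Leaving out 2 B6 controls, chosen after seeing the data, gave 1 for the strain difference (Cxcl2, -0.64, adjusted p = 0.0293) and 2 between control sexes. Apart from the filter, the cause of these moves was not tested. Shares of all genes called were not computed for the alternative fits.

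Signs turned in values near 0. Between strains in controls, Il1b was -0.14 with the covariates and -0.01 without the 2 B6 controls, and Cxcl5 was 0.02 with array weights, 0.04 with the covariates and 0.02 without the 2 B6 controls. The strain difference of Csf3r was -0.02 with the replicate block and -0.04 with the covariates. Over single-array omissions Csf3r spanned -0.11 to 0.17 and Il1r2 -0.21 to 0.01 in that comparison, Cxcl1 -0.02 to 0.06 for the CF effect in B6, and Cxcl5 -0.05 to 0.04 between strains in controls. The cause was not tested.

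Deviations of arrays of the same replicate number in different groups had a median correlation of 0.002 over 77 pairs (17 above 0.1, highest 0.347). Pairs of other numbers had a median of -0.004 over 154 pairs (30 above 0.1, highest 0.281). These values show no general pairing by number but, with so few arrays per group, cannot exclude it. With the number as a replicate block, Il1b was 1.41 in B6 and 0.70 in BALB, and the counts were 4 and 3. Under the block Il1rn between strains in controls was -0.35 with adjusted p = 0.0583.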
